A study of Mus musculus with 60 samples.

Results

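The genes described here are 42 genes of mitosis, 40 that carry out cell division and 2 transcription factors, Foxm1 and Mybl2, that activate such genes. They are listed by name and by role, and the list was drawn up with earlier results of these data known. All 42 were listed among the 19355 genes measured in cultured cells and among the 17473 genes measured in livers. The values are FPKM (fragments per kilobase of transcript and per mega of mapped reads), a level that can be set side by side between genes because it is given per length.

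Messenger RNA selected by its polyA tail was measured in hepatocytes that were driven to grow with interleukin 6 (IL6) and in livers that regrow after surgery, all in 3 samples per group. Hepatocytes were isolated by perfusion from livers of wild-type C57BL/6 mice (C57BL/6J in the study's methods), 8 to 10 weeks old. In medium with IL6, EGF, HGF and dexamethasone (IL6-HCM) they became IL6-iHPCs, progenitor-like cells, which were sampled at day 3 (IL6-iHPCs-D3 (P0)) and day 14 (IL6-iHPCs-D14 (P0)) before any passage, and then in serially passaged lines. The 3 lines were IL6-iHPCs-mouse-1 at passage 10 and passage 35, IL6-iHPCs-mouse-2 at passage 10 and IL6-iHPCs-clone-1 at passage 20. Clone-1 is 1 clone, which the study grew from a single hepatocyte of an animal with a tdTomato reporter switched on by Albumin-Cre, a driver of the hepatocyte lineage. Each of these 4 passaged cultures was also sampled as IL6-iMHs, cells matured in a medium with oncostatin M and dexamethasone. Livers came from wild-type C57BL/6 mice, for which the methods give the same substrain and age, and were taken from unoperated mice (Normal liver) and 6 h, 24 h, 3 days, 7 days and 14 days after 2/3 partial hepatectomy (PHX). This gave 33 cell samples in 11 groups and 18 liver samples in 6 groups, and no animal carried a gene deletion. The study calls the samples of a cell group technical repeats, so the p-values of the cell comparisons measure technical spread only. The labels of the livers give sample numbers and do not say how many animals stand behind them.

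Cells that divide make the machinery of mitosis anew in each cycle and destroy much of it when they exit. Foxm1 and Mybl2 (B-Myb) join the MuvB complex on the promoters of these genes in G2, and the genes then rise together. Cyclin B and Cdk1 drive entry into mitosis, the spindle checkpoint holds it until every chromosome is attached, and the anaphase-promoting complex (APC/C) with Cdc20 ends it by destroying securin and the cyclins. Adult hepatocytes rarely divide and carry little of this machinery, but re-enter the cycle when liver mass is lost.

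Cell samples held 49.3 to 88.9 M gene reads and liver samples 52.1 to 79.3 M (M for mega), where a read is the smallest unit that could be recovered from the values. The labelled cell types were checked first. Summed FPKM of 7 hepatocyte markers was 73631 to 79508 in hepatocytes, 936 to 9907 in IL6-iHPCs and 59355 to 80510 in IL6-iMHs. Summed FPKM of 5 cholangiocyte or progenitor markers was 3.84 to 3.94 in hepatocytes, 355 to 10977 in IL6-iHPCs and 200 to 1408 in IL6-iMHs. In IL6-iHPCs and IL6-iMHs the sums given below for macrophage, stellate cell or fibroblast and neutrophil markers rest on few genes. At most 2 genes of such a list reached 1 FPKM in each sample of a group. These sums do not establish that such cells were present. Reads on 4 Y-linked genes differed between groups. They numbered 994 to 1550 per sample in hepatocytes, 13066 to 18444 at D3, 9185 to 10803 at D14, 6575 to 9095 in IL6-iHPCs-clone-1 (P20) and 0 in IL6-iMHs-clone-1 (P20), while the mouse-1 and mouse-2 lines held 0 to 2 in both states. Comparisons of the mouse-1 and mouse-2 lines with hepatocytes therefore set samples without these reads against samples with them, and the part of this in the results was not tested. The clone-1 pair is therefore named by its labels only, and maturation is given for the other cultures beside it. In bulk samples, fewer cells that express a gene and less RNA of it per cell cannot be told apart.

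Promoters are shown because these genes move together. MuvB is known to bind the CHR element, TTTGAA or TTCGAA, and the factor NF-Y binds CCAAT boxes, and both occur near the start of many G2 and M phase genes. RefSeq promoters of the build GRCm38.p6, cut to the 250 bases before the gene start, were found for 35 of the 42 genes. Of these 35, 26 (74.3%) held CCAAT on either strand, against 34.2% of 27025 promoters of the same length. TTTGAA stood in 10 (28.6%, against 16.3%) and TTCGAA in 2 (5.71%, against 1.29%). CCAAT together with TTTGAA or TTCGAA was found in 10 (28.6%, against 6.14%). The E2F-like words GCGGGAA and TTTCCCGC stood in 0, against 3.86% and 0.936%, and the forkhead word TGTTTAC in 1 (2.86%, against 3.12%). These are matches of letters and not binding sites. Below are 4 of the windows, for Ube2c, Ccnb2, Cdc20 and Mki67, each of which holds both CCAAT and TTTGAA, with these words or their reverse complements (ATTGG and TTCAAA) in capitals and the start site just after the last base.
Ube2c, chr2:164769679-164769928, plus strand: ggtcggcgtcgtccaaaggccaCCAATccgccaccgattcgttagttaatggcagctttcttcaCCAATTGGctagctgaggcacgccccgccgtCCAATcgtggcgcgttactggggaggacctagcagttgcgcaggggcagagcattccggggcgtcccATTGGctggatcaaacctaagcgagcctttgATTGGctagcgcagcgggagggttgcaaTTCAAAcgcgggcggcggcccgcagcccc
Ccnb2, chr9:70421555-70421804, minus strand: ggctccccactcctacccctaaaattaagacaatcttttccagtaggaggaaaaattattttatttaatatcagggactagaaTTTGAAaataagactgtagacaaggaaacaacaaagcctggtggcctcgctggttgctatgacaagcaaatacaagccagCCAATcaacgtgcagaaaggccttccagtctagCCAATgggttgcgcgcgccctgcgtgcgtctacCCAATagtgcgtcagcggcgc
Cdc20, chr4:118437344-118437593, minus strand: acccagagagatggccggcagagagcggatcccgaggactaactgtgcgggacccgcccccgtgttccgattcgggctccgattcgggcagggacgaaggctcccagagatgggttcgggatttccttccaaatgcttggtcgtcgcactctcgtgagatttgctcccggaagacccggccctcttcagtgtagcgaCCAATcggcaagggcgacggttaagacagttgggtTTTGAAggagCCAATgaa
Mki67, chr7:135716380-135716629, minus strand: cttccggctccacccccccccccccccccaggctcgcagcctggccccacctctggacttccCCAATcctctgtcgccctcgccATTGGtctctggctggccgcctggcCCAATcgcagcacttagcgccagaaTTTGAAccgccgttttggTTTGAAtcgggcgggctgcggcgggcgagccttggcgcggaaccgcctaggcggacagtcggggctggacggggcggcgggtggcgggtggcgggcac

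In Cdc20 the TTTGAA lies 18 to 13 bases before the start and a CCAAT 8 to 4 bases before it. Ube2c has 3 CCAAT on each strand and its TTTGAA on the minus strand, 29 to 24 bases before the start. These starts are RefSeq's, and GENCODE starts Ube2c 31 bases and Cdc20 9 bases farther upstream, so that the TTTGAA of Ube2c and the nearer CCAAT of Cdc20 lie within the GENCODE genes. The genes lie on many chromosomes of the same build. Foxm1 is at chr6:128362967-128376146 on the plus strand, Mybl2 at chr2:163054687-163084688 on the plus strand, Mki67 at chr7:135689784-135716361 on the minus strand and Pttg1 at chr11:43420250-43426251 on the minus strand. Exons of 10 of the 42 genes overlap an exon of another gene, and in 5 of them over 10% of the exon bases are shared with a gene on the other strand (Ccna2 10.4%, Prc1 21.8%, Ube2c 22.8%, Kif20a 31.8% and Kif4 15.1%). Strand use is not stated, so reads from such shared stretches cannot be told apart.

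Hepatocytes had little of the machinery, and the IL6-iHPC groups differed widely in how much they had. The median of the 42 genes was 0.0897 FPKM in hepatocytes, 3.88 in IL6-iHPCs-D3 (P0), 2.77 in IL6-iHPCs-D14 (P0), 0.655 in IL6-iHPCs-mouse-1 (P10), 2.76 in IL6-iHPCs-mouse-2 (P10), 22.1 in IL6-iHPCs-clone-1 (P20) and 31.4 in IL6-iHPCs-mouse-1 (P35). Genes with a group mean of at least 1 FPKM numbered 3 in hepatocytes (Aurka, Cenpa and Pttg1), 41 at D3, 39 at D14, 13 in mouse-1 (P10), 36 in mouse-2 (P10) and 42 in both clone-1 (P20) and mouse-1 (P35). The mouse-1 line thus had the lowest median of the IL6-iHPC groups at P10 and the highest at P35. In 40 of the 42 genes the highest group was IL6-iHPCs-mouse-1 (P35), the exceptions being Mki67, highest in clone-1 (P20), and Pttg1, highest in hepatocytes.

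**Figure D1:**
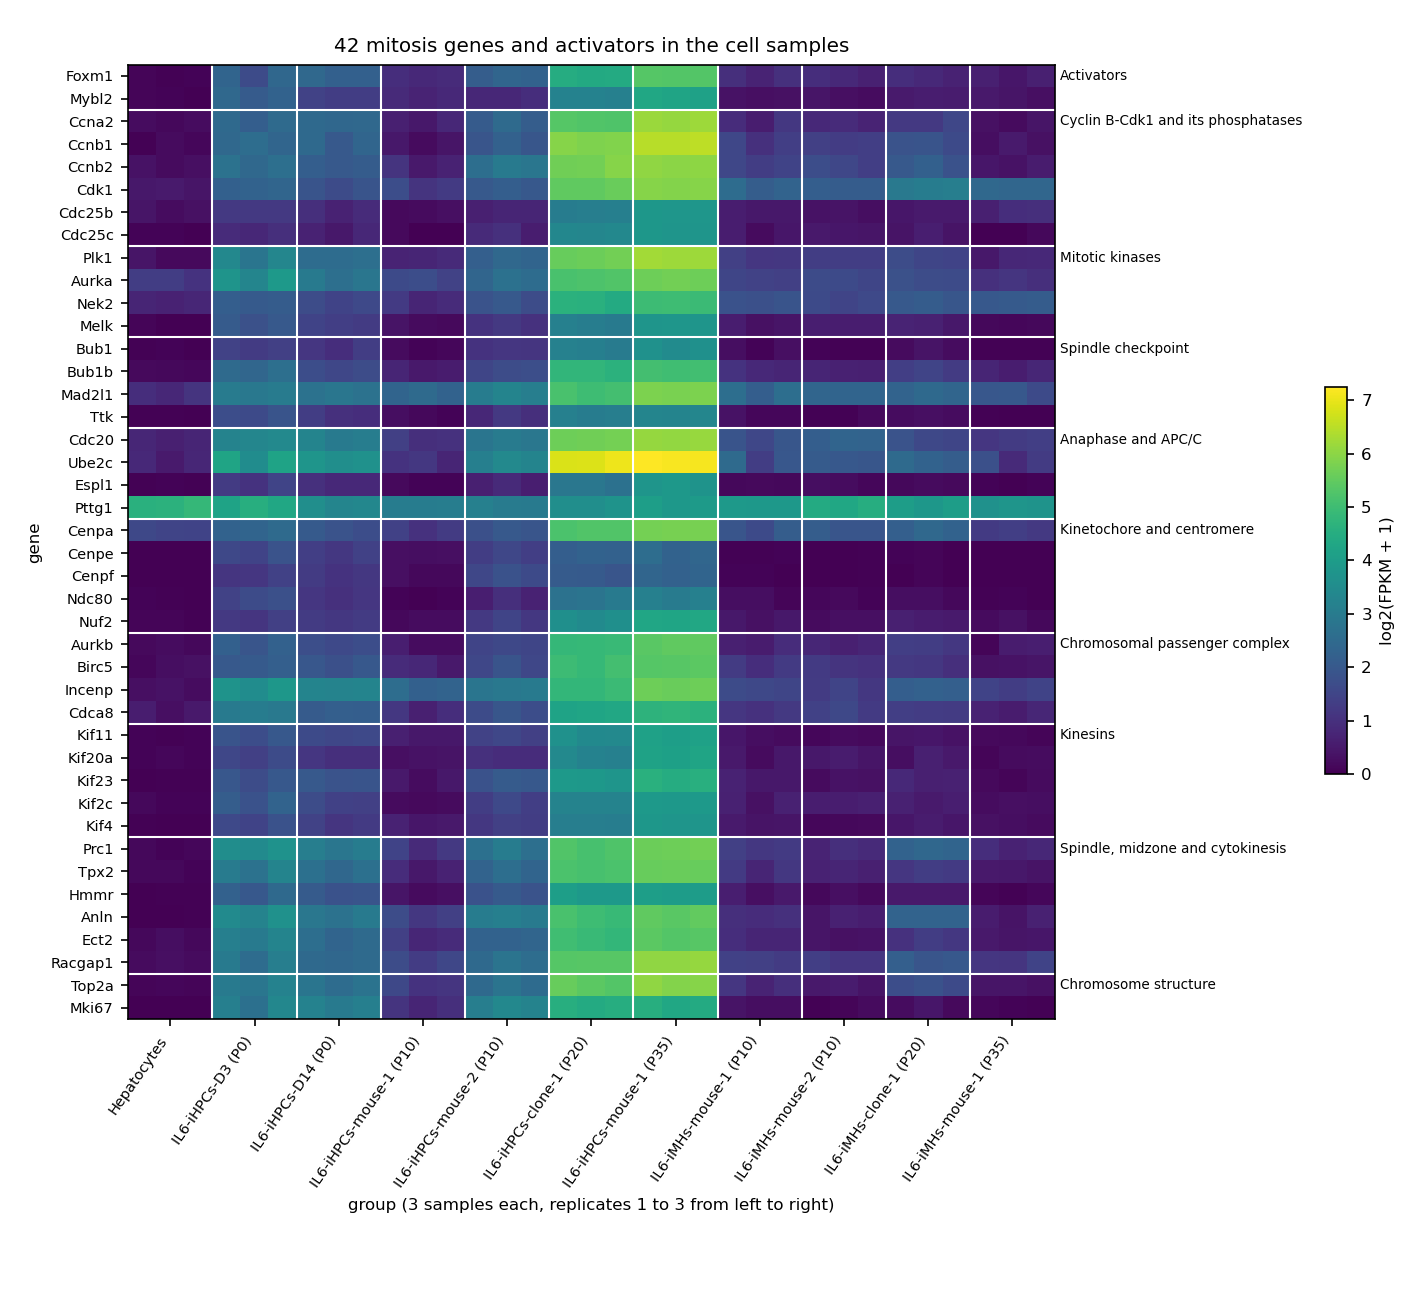
Heat map of the 42 genes (rows, by role) in the 33 cell samples (columns, by group), coloured by log2(FPKM + 1). The columns of IL6-iHPCs-clone-1 (P20) and IL6-iHPCs-mouse-1 (P35) are the brightest, with group medians of 22.1 and 31.4 FPKM, and Pttg1 is the row that is bright in hepatocytes.

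The first comparison is that of cells after 3 days in IL6-HCM with hepatocytes. None of the 11 cell groups was cultured without IL6 from the start, so plating, time, IL6 and the other medium factors cannot be told apart. Of the 42 genes, 38 rose in IL6-iHPCs-D3 (P0) against hepatocytes and 0 fell, where 53.9% of the 12328 genes tested rose and 12.1% fell. A gene is said to rise or fall here at an adjusted p under 0.05 in limma, adjusted after Benjamini and Hochberg across every gene tested, and at least 2-fold on the scale of log2(FPKM + 1), which understates the change of low genes. Their median log2 difference was 2.01, beside 1.14 over all genes. A rise was thus common among all genes. Summed markers of 4 other cell types were lower with it. Those of red blood cell precursors went from 108.6 to 123.6 FPKM in hepatocytes to 0.973 to 1.70 FPKM and of lymphocytes from 7.26 to 8.48 to 0.184 to 0.252 FPKM. Those of neutrophils went from 6.49 to 7.88 to 0.0548 to 0.173 FPKM and of endothelial cells from 16.4 to 18.9 to 7.15 to 8.56 FPKM. The sum of 8 macrophage markers was higher, at 20.9 to 26.7 FPKM beside 14.7 to 17.2. At D3 1 of the 8 reached 1 FPKM in each sample, beside 3 in hepatocytes, and Clec4f and Marco were at 0. The sum of cholangiocyte or progenitor markers was also higher, at 355 to 529 FPKM beside 3.84 to 3.94. The part of these markers in the result was not tested. Quantile normalization moved the median of all genes from 1.14 to 0.11 and the shares from 53.9% up and 12.1% down to 25.8% up and 22.3% down. It left 22 of the 42 genes higher and 1 (Pttg1) lower, with a median of 1.03, and turned the sign of 3 genes, Nek2, which had been called, and Cdc25b and Cenpa, which had not.

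Both activators came up. Foxm1, the forkhead factor, was at 0.0810, 0.0384 and 0.0569 FPKM in hepatocytes and at 4.01, 2.15 and 4.34 FPKM at D3. All D3 samples lay far above the hepatocytes, with a log2 difference of 2.05 ± 0.12 (SE, n = 3 per group, limma adjusted p = 7e-16). Mybl2 went from 0.0614, 0.0504 and 0.0185 FPKM to 4.44, 3.27 and 3.86 FPKM (2.21 ± 0.07, limma adjusted p = 8.9e-23). At D14 their levels were unlike. Foxm1 stood at 4.44, 3.66 and 3.67 FPKM, whereas Mybl2 stood at 1.68, 1.5 and 1.48 FPKM, below each of its D3 samples.

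By role, the rise at D3 took in all 4 mitotic kinases, all 4 spindle checkpoint genes, all 4 of the chromosomal passenger complex, all 5 kinesins, all 6 genes of spindle, midzone and cytokinesis and both of chromosome structure. It took in 4 of 6 of cyclin B, Cdk1 and their phosphatases, 3 of 4 of anaphase and the APC/C and 4 of 5 of kinetochore and centromere, where 53.9% of all genes rose. Under quantile normalization, where 25.8% of all genes rose, it took in 2 of the 4 mitotic kinases, 1 of the 4 checkpoint genes, 2 of the 4 passenger genes and 2 of the 5 kinesins, 2 of 6 of cyclin B, Cdk1 and phosphatases, 2 of 4 of anaphase and the APC/C and 1 of 5 of kinetochore and centromere. All 6 genes of spindle, midzone and cytokinesis, both of chromosome structure and both activators rose under either scaling. Prc1, which bundles midzone microtubules, went from 0.108, 0.0583 and 0.0987 FPKM to 10.8, 10 and 12 FPKM (3.45 ± 0.11). Anln (anillin), the scaffold of the contractile ring, went from 0.0132, 0.00576 and 0.0238 FPKM to 10.1, 8.37 and 11.7 FPKM (3.44 ± 0.10). Incenp, the scaffold of the chromosomal passenger complex, went from 0.218, 0.274 and 0.171 FPKM to 12.2, 10.5 and 13.2 FPKM (3.40 ± 0.09). These 3 genes were separated from hepatocytes in each sample. Ube2c, the ubiquitin-conjugating enzyme of the APC/C, went from 0.791, 0.443 and 0.705 FPKM to 17.7, 10.5 and 17.4 FPKM (3.27 ± 0.21). Mki67, the proliferation marker Ki-67, was at 0.00155, 0.00678 and 0.00745 FPKM in hepatocytes and at 7.81, 5.42 and 9.28 FPKM at D3. The genes that did not pass were the phosphatases Cdc25b (0.89 ± 0.07) and Cdc25c (0.85 ± 0.09), the centromeric histone Cenpa (0.86 ± 0.11) and Pttg1 (-0.35 ± 0.08).

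At D14 the level was like that at D3 or a little lower. Against hepatocytes 35 genes were higher and 1, Pttg1, was lower, beside 50% and 12.9% of all genes tested, and quantile normalization left 16 higher and 2 (Pttg1 and Cenpa) lower, beside 25.3% and 22.6% of all genes. Stellate cell or fibroblast markers summed to 25.2 to 27.0 FPKM at D14, where 1 of 7 reached 1 FPKM in each sample, beside 0.766 to 1.22 at D3 and 0.774 to 1.22 in hepatocytes. Macrophage markers summed to 3.70 to 4.41 FPKM at D14, beside 20.9 to 26.7 at D3 and 14.7 to 17.2 in hepatocytes. Endothelial markers summed to 0.462 to 0.752 FPKM, beside 7.15 to 8.56 and 16.4 to 18.9, and cholangiocyte or progenitor markers to 4060 to 4483 FPKM, beside 355 to 529 and 3.84 to 3.94. The part of these markers in the result was not tested. Against D3 itself 0 genes passed in either direction, beside 5.12% higher and 5.05% lower of all genes. Without the fold limit 31 were lower at an adjusted p under 0.05, beside 47.3% of all genes, and 32 of the 42 had an unadjusted p under 0.05. The median ratio of D14 to D3 was 0.660, from 0.403 in Mybl2 to 1.12 in Foxm1. Limma voom on recovered reads called 4 genes, all lower, beside 10.2% of all genes, and a pseudocount of 0.1 called 2, both lower, beside 9.25%.

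After 10 passages the 2 mouse lines differed. IL6-iHPCs-mouse-1 (P10) had 6 genes higher than hepatocytes and 1 lower, beside 40% and 12.6% of all genes, and its genes stood at a median of 20% of the D14 level. The 6 were Incenp (2.09 ± 0.09), Mad2l1 (1.42), Anln (1.39), Racgap1 (1.26), Top2a (1.14) and Prc1 (1.05), and the lower gene was Pttg1 (-1.65 ± 0.08). Under quantile normalization 2 rose (Anln and Incenp) and 2 fell (Cenpa and Pttg1), beside 22.6% and 19.5% of all genes, the sign of 22 genes turned, none of them called, and the median of the 42 turned from 0.38 to -0.11. This count also depended on the scale, being 27 with a pseudocount of 0.1, beside 65.1% of all genes, and 32 with limma voom, beside 67.4%.

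IL6-iHPCs-mouse-2 (P10) had 33 genes higher than hepatocytes and 1 lower (Pttg1), beside 42.8% and 13.1% of all genes, and 19 higher and 1 lower under quantile normalization, beside 23.1% and 20.5%, where the signs of the same 3 genes turned. Set directly against mouse-1 (P10), 22 of the 42 genes were higher in mouse-2 and 0 lower, whereas 2.22% of all genes were higher and 1.83% lower. The median ratio of the group means was 5.03. Summed FPKM of stellate cell or fibroblast markers was 10.2 to 19.4 in mouse-1 (P10) and 3.67 to 4.59 in mouse-2 (P10), and that of macrophage markers 0.957 to 1.54 and 4.53 to 4.88, and their part in the result was not tested. Mki67 stood at 1.11, 0.668 and 0.974 FPKM in mouse-1 and at 7.54, 9.41 and 8.38 FPKM in mouse-2 (2.30 ± 0.11, limma adjusted p = 2.9e-16). Foxm1 stood at 0.920, 0.800 and 0.854 FPKM in mouse-1 and at 3.41, 4.12 and 3.81 FPKM in mouse-2 (1.36 ± 0.12, limma adjusted p = 1.8e-10). Mybl2 did not differ beyond its spread, at 0.835, 0.660 and 0.776 FPKM in mouse-1 and 0.764, 0.763 and 0.917 FPKM in mouse-2 (0.05 ± 0.07, limma adjusted p = 0.62). The 2 activators therefore did not move together between these lines. All 22 calls were in 1 direction, and with quantile normalization 17 of the same 22 genes were called. The labels give 1 line per mouse, so mouse and line cannot be told apart.

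**Figure D2:**
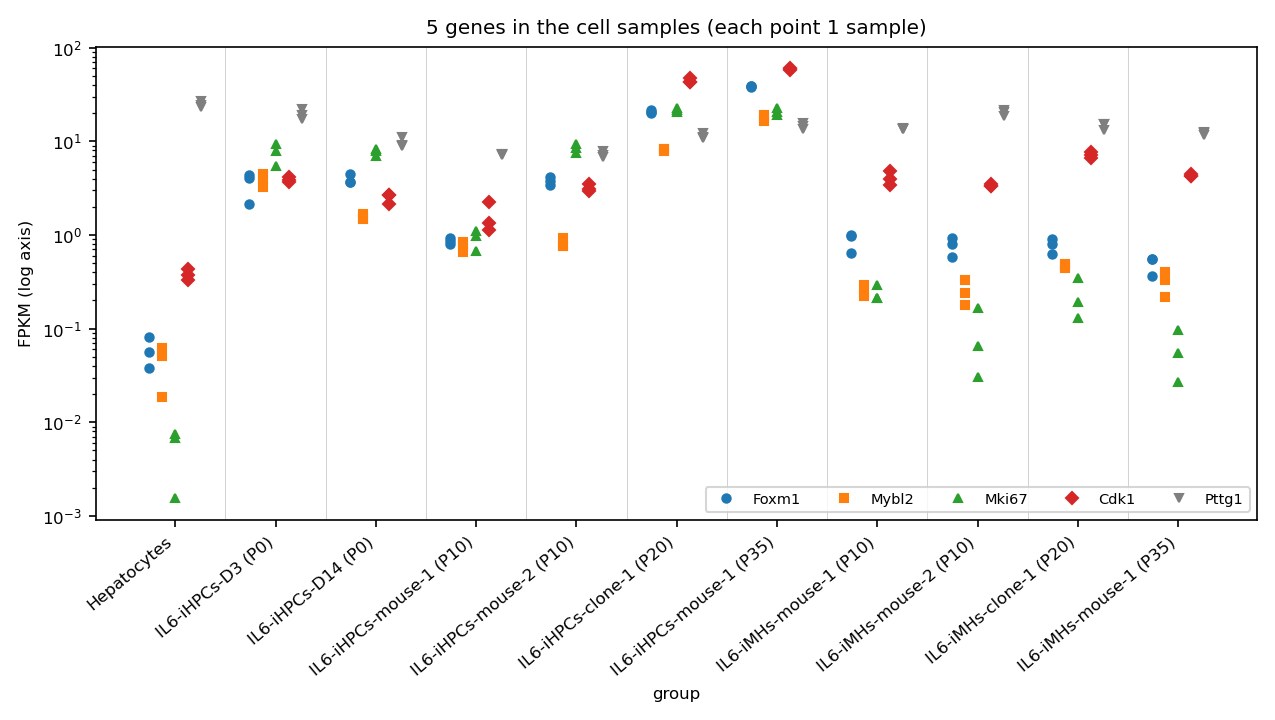
FPKM on a log axis of Foxm1, Mybl2, Mki67, Cdk1 and Pttg1 in the 11 cell groups, with 1 point for each of the 3 samples. Foxm1 and Mybl2 are lowest in hepatocytes and highest in IL6-iHPCs-mouse-1 (P35), Cdk1 stays between 3.32 and 7.64 FPKM in IL6-iMHs, and Pttg1 is highest in hepatocytes.

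In the late cultures the whole set was high. IL6-iHPCs-clone-1 (P20) had 41 genes higher than hepatocytes and 1 lower (Pttg1), beside 51.5% and 10.4% of all genes, with a median log2 difference of 3.95. IL6-iHPCs-mouse-1 (P35) had 41 higher and 0 lower, beside 54.3% and 11.7%, with a median of 4.43 where all genes had 1.16. Quantile normalization kept all 41 in each culture, with Pttg1 then lower in both, while the shares of all genes became 22.4% and 19.1% in clone-1 and 25.3% and 20.6% in mouse-1 (P35).

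The highest level in mouse-1 (P35) was that of Ube2c, at 151, 143 and 140 FPKM (6.48 ± 0.21 on the log2 scale against hepatocytes, limma adjusted p = 1.9e-22). Ccnb1, cyclin B1, the partner that activates Cdk1, went from 0.0381, 0.150 and 0.0919 FPKM in hepatocytes to 88.3, 87.3 and 91.4 FPKM (6.36 ± 0.12). Cdk1 itself went from 0.376, 0.433 and 0.329 FPKM to 59.6, 58.3 and 59.9 FPKM (5.45 ± 0.10). Each gene was far from the hepatocytes in all samples. Plk1, the polo-like kinase of mitotic entry and spindle assembly, reached 75.1, 71.2 and 72.4 FPKM (5.94 ± 0.11). Top2a, the topoisomerase that untangles sister chromatids, reached 64.6, 59.3 and 59.9 FPKM (5.86 ± 0.11). Racgap1, of the centralspindlin complex, reached 64.5, 65.4 and 67.6 FPKM (5.82 ± 0.11). The lowest level was that of Cenpf, a large kinetochore protein, at 4.17, 3.75 and 4.05 FPKM, beside 0.00279, 0 and 0 FPKM in hepatocytes. Foxm1 was at 39.3, 38.6 and 38.3 FPKM (5.23 ± 0.12, limma adjusted p = 4.7e-26) and Mybl2 at 18.9, 17.7 and 16.6 FPKM (4.17 ± 0.07, limma adjusted p = 1.2e-29). In clone-1 (P20) Foxm1 was at 21.6, 20.1 and 20.6 FPKM and Mybl2 at 8.28, 8.35 and 7.84 FPKM, about 53.5% and 46.0% of the mouse-1 (P35) means, while the median of the 42 genes was 70.4%. Summed FPKM of 5 neutrophil markers was 86.4 to 92.3 in mouse-1 (P35) and 27.9 to 36.5 in clone-1 (P20), beside 6.49 to 7.88 in hepatocytes and at most 1.06 in the other IL6-iHPCs, and its part in these results was not tested. In both cultures 2 of the 5 markers reached 1 FPKM in each sample, and Mpo and Elane were at 0 in all samples.

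Within the mouse-1 line, 41 genes rose from P10 to P35 and 0 fell, beside 24.8% and 8.94% of all genes tested (14.3% and 13.6% under quantile normalization, which called the same 41). The median log2 difference was 4.03, beside 0.36 over all genes, and the median ratio of means was 58.0. Foxm1 rose by 4.42 ± 0.12, Mybl2 by 3.42 ± 0.07, Ube2c by 6.19 ± 0.21 and Ccnb1 by 6.13 ± 0.12 on the log2 scale. The exception was Pttg1 with 0.91 ± 0.08, under the 2-fold limit. Marker sums moved too, those of hepatocytes from 7772 to 8726 FPKM at P10 to 1894 to 1941 at P35. Cholangiocyte or progenitor markers went from 7409 to 8438 to 2699 to 2794 FPKM and stellate cell or fibroblast markers from 10.2 to 19.4 to 4.90 to 5.47 FPKM. Macrophage markers went from 0.957 to 1.54 to 4.51 to 5.72 FPKM and neutrophil markers from 0.0975 to 0.121 to 86.4 to 92.3 FPKM. Their part in the result was not tested. Compared with D3, the level at P35 was 7.36 times as high at the median, from 0.747 times in Pttg1 to 19.4 times in Ccnb1.

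Maturation into IL6-iMHs was compared between groups that carry the same line and passage label, which for clone-1 differ in Y-linked reads as given above. In mouse-1 (P35) 41 of the 42 genes fell and 0 rose, beside 35.1% and 10.2% of all genes (16.7% and 15.4% under quantile normalization, with the same 41 lower), and IL6-iMHs kept a median of 0.886% of the IL6-iHPC level. Neutrophil markers went in sum from 86.4 to 92.3 FPKM to 1.16 to 2.09 FPKM with it, and stellate cell markers from 4.90 to 5.47 FPKM to 0.174 to 0.246 FPKM. Macrophage markers went from 4.51 to 5.72 FPKM to 32.5 to 40.7 FPKM, with 2 of 8 at 1 FPKM in each IL6-iMH sample and Clec4f, Cd5l and Vsig4 at 0. The part of all these markers in the result was not tested. In clone-1 (P20) 41 fell and 0 rose, beside 17.7% and 5.86% (8.63% and 8.96% under quantile normalization, with the same 41 lower), and the level in IL6-iMHs was a median of 4.67% of that in IL6-iHPCs. Neutrophil markers summed to 27.9 to 36.5 FPKM in IL6-iHPCs and 0.0645 to 0.157 FPKM in IL6-iMHs of clone-1, macrophage markers to 8.15 to 9.65 and 18.4 to 20.3 FPKM and stellate cell markers to 3.47 to 4.39 and 0.0830 to 0.181 FPKM. Of the 8 macrophage markers 5 in IL6-iHPCs and 6 in IL6-iMHs were at 0 in all samples, and 1 in each state reached 1 FPKM in each sample. In mouse-2 (P10) 21 fell and 1 rose, beside 28.6% and 11.2%, and the median was 27.0%, with stellate cell markers at 3.67 to 4.59 FPKM before and 0.423 to 0.611 FPKM after and macrophage markers at 4.53 to 4.88 and 1.39 to 1.48 FPKM. In mouse-1 (P10) 0 fell and 0 rose, beside 15.4% and 9.59%, and IL6-iMHs stood at a median of 156% of the IL6-iHPC level, with stellate cell markers at 10.2 to 19.4 FPKM before and 0.123 to 0.177 FPKM after and macrophage markers at 0.957 to 1.54 and 3.48 to 4.44 FPKM. The part of these markers in the results was not tested.

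**Figure D3:**
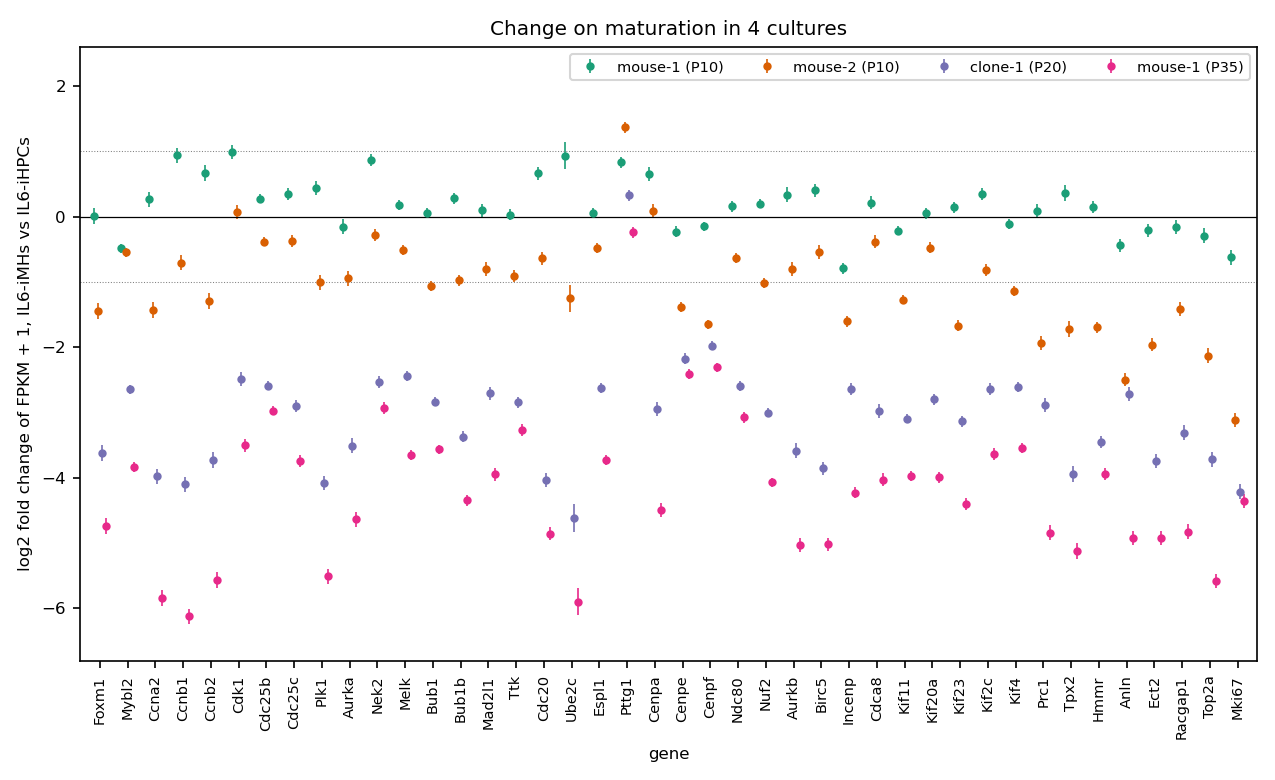
Log2 difference of IL6-iMHs against IL6-iHPCs, on the log2(FPKM + 1) scale, for each of the 42 genes in the 4 cultures (colours), with bars for the SE and dotted lines at 2-fold. The medians of the genes are 0.16 at P10 and -4.15 at P35 for the mouse-1 line, -0.99 for mouse-2 and -2.96 for clone-1.

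In mouse-1 (P35) the largest fall was that of Ccnb1, from 88.3, 87.3 and 91.4 FPKM to 0.196, 0.445 and 0.249 FPKM (-6.12 ± 0.12, limma adjusted p = 1.1e-27). Ube2c fell to 2.38, 0.816 and 1.39 FPKM (-5.90 ± 0.21), and Ccna2, cyclin A2, from 70.5, 67.9 and 71.3 FPKM to 0.253, 0.153 and 0.317 FPKM (-5.84 ± 0.12). Foxm1 fell to 0.559, 0.367 and 0.547 FPKM (-4.74 ± 0.12) and Mybl2 to 0.403, 0.330 and 0.217 FPKM (-3.83 ± 0.07). Both activators thus ended below 1 FPKM in each sample. Cdk1 kept more of its level, at 4.47, 4.23 and 4.27 FPKM (-3.50 ± 0.10), as did Nek2, a centrosome kinase, at 3.01, 3.12 and 3.28 FPKM (-2.93 ± 0.09).

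In clone-1 (P20) Ube2c went from 112, 116 and 133 FPKM to 4.64, 3.89 and 3.38 FPKM (-4.61 ± 0.21). Mki67 went from 22.5, 20.5 and 21.8 FPKM to 0.192, 0.349 and 0.131 FPKM (-4.21 ± 0.11). Foxm1 fell to 0.913, 0.799 and 0.631 FPKM (-3.61 ± 0.12) and Mybl2 to 0.443, 0.489 and 0.468 FPKM (-2.64 ± 0.07). The exception was Pttg1 (0.33 ± 0.08, from 10.9, 11.1 and 12.3 FPKM to 15.3, 13.2 and 15.3 FPKM).

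In mouse-2 (P10), where 28.6% of all genes fell, the fall took in all 6 genes of spindle, midzone and cytokinesis and both of chromosome structure, 3 of 5 kinesins and 3 of 5 kinetochore genes. In turn 2 of 6 of cyclin B, Cdk1 and their phosphatases fell, and 1 of 4 each of the mitotic kinases, checkpoint genes, chromosomal passenger genes and anaphase genes. Under quantile normalization the genes lower were Anln, Ect2, Hmmr, Prc1 and Tpx2 of spindle, midzone and cytokinesis, both of chromosome structure, the kinesin Kif23 and the kinetochore genes Cenpe and Cenpf. No gene of the other roles was lower there. Mki67 fell from 7.54, 9.41 and 8.38 FPKM to 0.0303, 0.0648 and 0.168 FPKM (-3.12 ± 0.11, limma adjusted p = 1.6e-20), and Anln from 7.26, 7.73 and 6.79 FPKM to 0.335, 0.577 and 0.494 FPKM (-2.49 ± 0.10). Foxm1 fell from 3.41, 4.12 and 3.81 FPKM to 0.921, 0.798 and 0.576 FPKM (-1.44 ± 0.12, and -0.69 under quantile normalization, which ends the call). Cdk1 had no detectable change, at 3.08, 3.49 and 2.98 FPKM before and 3.52, 3.32 and 3.32 FPKM after (0.07 ± 0.10, limma adjusted p = 0.54). The count was 11 under quantile normalization, 10 lower and 1 higher, beside 16.6% and 15.6% of all genes, where the sign of 8 genes turned, none of them called, and 35 with limma voom, beside 54.1%.

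In mouse-1 (P10) the genes went both ways. The level in IL6-iMHs was 18% of that in IL6-iHPCs in Cenpe, the lowest, and 692% in Cdc25c, the highest, and it was above 100% in 30 of the 42 genes. Without the fold limit 19 genes were higher in IL6-iMHs, beside 29.9% of all genes, and 8 lower, beside 49.7%, at an adjusted p under 0.05, and 28 had an unadjusted p under 0.05. The change ran with transcript length among all genes of the fit. By the longest GENCODE transcript, their median log2 difference was 0.54 up to 1500 bases, 0.08 up to 2500, -0.16 up to 4000 and -0.56 beyond. The 42 genes had medians of 0.67 (8 genes, 7 of them positive), 0.19 (20 genes, 18 positive) and -0.15 (14 genes, 5 positive) in the last 3 of these bins, and none lies in the first. The part of length in their change was not tested. Cdk1 stood at 2.27, 1.13 and 1.35 FPKM in IL6-iHPCs and at 4.87, 3.44 and 3.94 FPKM in IL6-iMHs (0.99 ± 0.10, limma adjusted p = 1e-09). Ccnb1 stood at 0.377, 0.152 and 0.338 FPKM and at 1.92, 1.02 and 1.56 FPKM (0.94 ± 0.12). The other way, Incenp stood at 5.07, 3.65 and 3.93 FPKM and at 2.14, 2.00 and 1.85 FPKM (-0.79 ± 0.09), and Mki67 at 1.11, 0.668 and 0.974 FPKM and at 0.292, 0.212 and 0.213 FPKM (-0.62 ± 0.11). Groups did not overlap in any of these 4 genes. Foxm1 had 0.01 ± 0.12 and Mybl2 -0.49 ± 0.07. Limma voom on recovered reads called 17 genes, 12 higher and 5 lower, beside 13.7% and 25.8% of all genes, quantile normalization called 5, all higher (Ccnb1, Cdk1, Nek2, Pttg1 and Ube2c), beside 11.2% higher and 11.4% lower of all genes, and a pseudocount of 0.1 called 12, 8 higher and 4 lower, beside 12.8% and 23.6%.

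The maturation change was tested between cultures. That of mouse-1 (P35) was more negative than that of mouse-1 (P10) in all 42 genes (42 lower, 0 higher, beside 24.1% and 9.65% of all genes, or 14.2% and 14.1% under quantile normalization, which called 41). For Ccnb1 the difference of the 2 changes was -7.07 ± 0.16, for Foxm1 -4.75 ± 0.17 and for Mybl2 -3.35 ± 0.10. That of mouse-2 (P10) was more negative than that of mouse-1 (P10) in 26 genes and less negative in 0, beside 11.3% and 3.49% of all genes, and in 14 under quantile normalization, beside 5.44% and 5.13%. It was -2.49 ± 0.16 for Mki67 and -1.45 ± 0.17 for Foxm1 (-0.93 under quantile normalization, under the fold limit), and -0.06 ± 0.10 for Mybl2 (limma adjusted p = 0.64). These cultures entered maturation from medians of 31.4, 2.76 and 0.655 FPKM and left it at 0.338, 0.560 and 0.864 FPKM. On log2(FPKM + 1) a gene can fall no further than its starting level, so these tests do not separate maturation from that level.

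IL6-iMHs were then set against hepatocytes. The cholangiocyte or progenitor markers summed to 200 to 1408 FPKM in IL6-iMHs beside 3.84 to 3.94 in hepatocytes, and their part in the result was not tested. Genes higher in IL6-iMHs numbered 10 of 42 in mouse-1 (P10), beside 25.4% of all genes, 8 in mouse-2 (P10), beside 17.6%, 16 in clone-1 (P20), beside 35%, and 4 in mouse-1 (P35), beside 27.1%. These counts were thus near the shares of all genes, and below the share in mouse-1 (P35). Genes lower numbered 0 in each culture, where 7.25%, 7.63%, 10.4% and 8.02% of all genes were. Cdk1 and Incenp were higher in all 4 cultures, which come from 3 lines. Cdk1 stood at 0.376, 0.433 and 0.329 FPKM in hepatocytes and at 4.87, 3.44 and 3.94 FPKM, 3.52, 3.32 and 3.32 FPKM, 6.69, 7.17 and 7.64 FPKM and 4.47, 4.23 and 4.27 FPKM in the cultures as just listed. These are log2 differences of 1.87, 1.67, 2.57 and 1.95, and no IL6-iMH sample reached down to the hepatocytes. For Incenp the differences were 1.3, 1.02, 1.92 and 1.11. The 4 comparisons share their hepatocyte samples, so this agreement is a description only. In mouse-2 (P10) Incenp was no longer called without hepatocyte replicate 3 or without IL6-iMHs replicate 2. Under quantile normalization the counts were 1, 4, 9 and 4, Cdk1 was higher in all 4 cultures and Incenp in clone-1 only, and 1 of the 9 (Pttg1) and 3 of the last 4 (Aurka, Cenpa and Pttg1) were lower. The shares of all genes were then 12.1% higher and 10.3% lower in mouse-1 (P10), 11.4% and 9.39% in mouse-2 (P10), 17.4% and 15.8% in clone-1 (P20) and 14.0% and 11.9% in mouse-1 (P35). It turned the sign of 4, 8, 5 and 24 of the 42 genes in the same order, and in mouse-1 (P35) it turned their median log2 difference from 0.20 to -0.08. Limma voom called 38, 36, 39 and 25 genes, beside 52.4%, 42.04%, 62.6% and 53.9% of all genes. The median ratio of the 42 genes to the hepatocyte level was 7.36, 5.82, 9.85 and 2.98 before quantile normalization.

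Pttg1 (securin), which holds separase in check until anaphase, went its own way. It was the highest of the 42 genes in hepatocytes, at 23.4, 24.4 and 27.2 FPKM. It stood at 17.5, 22.1 and 18.9 FPKM at D3, at 11.1, 8.91 and 9.21 FPKM at D14 (-1.28 ± 0.08), at 7.23, 7.26 and 7.35 FPKM in mouse-1 (P10), at 7.90, 7.12 and 6.78 FPKM in mouse-2 (P10), at 10.9, 11.1 and 12.3 FPKM in clone-1 (P20) (-1.07 ± 0.08) and at 15.6, 13.6 and 14.5 FPKM in mouse-1 (P35). All of these culture samples lay below every hepatocyte sample. With maturation it rose in mouse-2 (P10), to 20.6, 18.8 and 21.7 FPKM (1.37 ± 0.08, limma adjusted p = 2.7e-15). In mouse-1 (P10) it stood at 14.0, 13.6 and 13.6 FPKM after maturation (0.83 ± 0.08, under the fold limit and called under quantile normalization), and in mouse-1 (P35) at 11.8, 12.6 and 12.2 FPKM (-0.24 ± 0.08, and 0.42 under quantile normalization). Espl1 (separase), its partner, had the pattern of the other genes, at 0.0217, 0.0512 and 0.0209 FPKM in hepatocytes and 12.6, 13.5 and 12.3 FPKM in mouse-1 (P35). None of the exon bases of Pttg1 is shared with another gene.

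As a description, log2 levels of Foxm1 correlated with those of the other genes at a median r of 0.97 over the 33 cell samples, with -0.21 for Pttg1 and 0.87 for Cdk1, and those of Mybl2 at a median r of 0.96. Over the 18 liver samples the medians were 0.96 for Foxm1 and 0.72 for Mybl2, with -0.04 between Foxm1 and Pttg1. The points share groups, libraries and depth. Outside the 42 genes, the 8 whose pattern was most like their mean over both sets of samples were Kifc1 (smaller r of the 2 sets 0.98), Iqgap3 (0.97), Arhgap11a (0.95), Tmem194 (0.92), Ube2t (0.91), Poc1a (0.91), Shcbp1 (0.90) and Wdr62 (0.90).

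Other genes of the cycle were read from lists. In mouse-1 (P35) against hepatocytes, 62 of 63 other mitosis genes rose and 0 fell, with Kif22, a kinesin that moves chromosome arms, the highest at 5.49, and the gene not called was Spc24 (0.83), a kinetochore subunit. Of 14 APC/C subunits 10 rose and 1 fell (Anapc13, -1.53). Of 22 MuvB, DREAM and E2F partners 18 rose, with Rbl1 (p107) at 3.68, and 0 fell. Of 45 G1 and S phase genes 43 rose, with Rrm2, a subunit of ribonucleotide reductase, at 7.52, and 1 fell (Mcm10, -1.32). Of 7 CDK inhibitors 6 rose, with Cdkn1a (p21) at 4.35, and 0 fell. At D3 the same lists had 50 and 1 of 63, 7 and 1 of 14, 15 and 1 of 22, 34 and 2 of 45 and 3 and 0 of 7 higher and lower, with Cdkn1a at 5.56. These counts stand beside 54.3% of all genes higher at P35 and 53.9% at D3.

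In livers the course was a dip, a peak at day 3 and a return. The median of the 42 genes was 0.412 FPKM in Normal liver, 0.0815 at 6 h, 0.229 at 24 h, 3.69 at day 3, 1.90 at day 7 and 0.549 at day 14. Genes with a group mean of at least 1 FPKM numbered 9, 1, 8, 36, 29 and 12. Day 3 was the highest group in 39 of the 42 genes, the exceptions being Cdc25b and Kif23 (day 7) and Pttg1 (Normal liver), and 6 h was the lowest in 39. With a level of 1 FPKM reached in at least 3 samples, 31 of the 42 genes were tested among 11114. The 11 others (Mybl2, Cdc25c, Melk, Bub1, Ttk, Espl1, Cenpe, Cenpf, Kif20a, Kif2c and Kif4) are given by their levels. Of the 31, 20 reached this level only through samples of day 3 or day 7, so the day 3 and day 7 values helped to decide which genes were tested. Without the filter all 42 genes were fitted among 17329, with the same counts of calls as given below except at day 3. All genes had a median log2 difference of -0.28 at 6 h and between -0.08 and 0.13 at the later times.

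**Figure D4:**
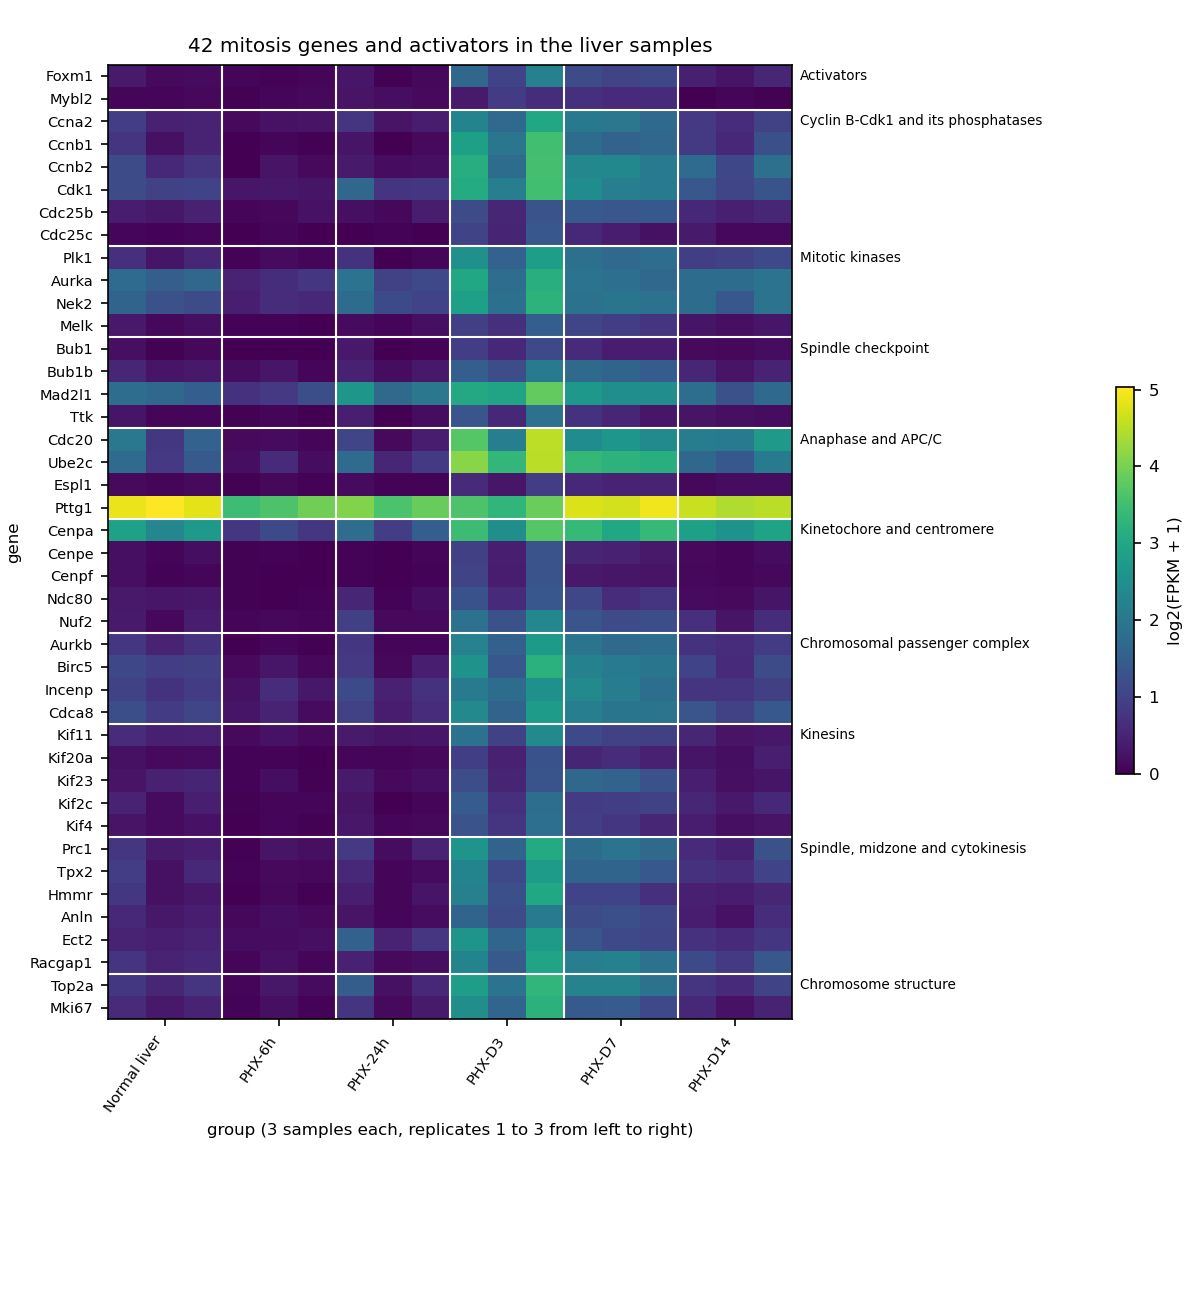
Heat map of the 42 genes (rows, by role) in the 18 liver samples (columns, by time after PHX), coloured by log2(FPKM + 1). The columns of day 3 are the brightest, with a median of 3.69 FPKM, followed by day 7 with 1.90 FPKM.

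At 6 h 4 of the 31 genes had fallen and 0 had risen, beside 11.5% and 4.78% of all genes (6.06% and 6.82% under quantile normalization, where Cdc20 and Cenpa remained). They were Cenpa, the centromeric histone (-1.74 ± 0.27, limma adjusted p = 0.00011), Cdc20, the activator of the APC/C (-1.35 ± 0.44, limma adjusted p = 0.019), Pttg1 (-1.24 ± 0.16) and Ube2c (-1.02 ± 0.33). Cenpa stood at 6.41, 4.02 and 5.64 FPKM in Normal liver and at 0.756, 1.15 and 0.741 FPKM at 6 h. Cdc20 stood at 3.02, 0.764 and 1.98 FPKM and at 0.0990, 0.105 and 0.0535 FPKM. Neither gene overlapped between the groups. Other cells' markers differed too, neutrophil markers summing to 38.1 to 39.8 FPKM at 6 h beside 1.53 to 6.91 in Normal liver. Macrophage markers summed to 62.4 to 122.8 FPKM beside 168 to 268 and lymphocyte markers to 0.552 to 0.809 FPKM beside 1.85 to 3.70. Endothelial markers summed to 67.5 to 79.7 FPKM beside 107.6 to 115.3 and cholangiocyte or progenitor markers to 39.8 to 81.8 FPKM beside 26.9 to 33.02. The part of these markers in the result was not tested. By level alone, all 6 h samples lay below all Normal liver samples in 38 of the 42 genes, beside 48.6% of all genes tested, and 11 genes were lower by adjusted p alone, beside 40.2%. The 42 include genes that did not pass the filter, which the 48.6% leaves out. The count of 4 was 2 without Normal liver replicate 1, 27, all lower, with a pseudocount of 0.1, where 19.8% of all genes were lower, and 20, all lower, with limma voom, where 20.9% were.

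At 24 h 2 genes were lower than in Normal liver, Cenpa (-1.25 ± 0.27) and Pttg1 (-1.07 ± 0.16), and 0 higher, beside 4.16% and 3.74% of all genes. Neutrophil markers summed to 8.77 to 75.3 FPKM at 24 h beside 1.53 to 6.91 in Normal liver, lymphocyte markers to 0.285 to 0.498 beside 1.85 to 3.70, endothelial markers to 75.6 to 86.2 beside 107.6 to 115.3 and cholangiocyte or progenitor markers to 37.9 to 196.5 beside 26.9 to 33.02, and their part in the result was not tested. Pttg1 was no longer called without 24 h replicate 2 (-0.95). Against 6 h, 1 gene rose and 0 fell, beside 5.19% and 1.53% of all genes (2.47% and 2.29% under quantile normalization, which called 0). It was Mad2l1, the checkpoint protein Mad2, at 0.658, 0.787 and 1.33 FPKM at 6 h and 5.36, 2.35 and 3.00 FPKM at 24 h (1.21 ± 0.25, limma adjusted p = 0.002), and it was not called without 24 h replicate 1. The 24 h samples were unlike each other, with replicate 1 the highest of the 3 in 37 of the 42 genes. Top2a stood at 1.78, 0.174 and 0.476 FPKM there, and Ect2, an exchange factor for RhoA in cytokinesis, at 1.97, 0.416 and 0.737 FPKM.

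At day 3, 28 of all 42 genes rose against Normal liver and 1 (Pttg1) fell in the fit without the filter, beside 1.98% and 1.37% of all genes. Their median log2 difference was 1.25, where all genes had 0.00. With the filter 26 genes rose and 1 fell, beside 3.33% and 2.49%. All day 3 samples lay above all Normal liver samples in 40 of the 42 genes, beside 20.2% of all genes tested. The 40 include all 11 genes that did not pass the filter, and the 20.2% leaves such genes out. Against 24 h, 30 of 42 rose and 0 fell without the filter, beside 1.26% and 1.02%, and 27 rose and 0 fell with it, beside 2.07% and 1.65%. By role, in the fit of all 42 genes, the rise over Normal liver took in Foxm1, 4 of 6 of cyclin B, Cdk1 and phosphatases, 3 of 4 mitotic kinases, 3 of 4 checkpoint genes, 2 of 4 of anaphase and the APC/C, all 4 chromosomal passenger genes, all 6 of spindle, midzone and cytokinesis and both of chromosome structure. It took in 1 of 5 kinetochore genes (Nuf2) and 2 of 5 kinesins (Kif11 and Kif4).

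Ube2c went from 2.39, 0.789 and 1.67 FPKM in Normal liver to 16.5, 9.03 and 21.7 FPKM (2.65 ± 0.33, limma adjusted p = 0.00012). Ccnb1 went from 0.694, 0.170 and 0.410 FPKM to 6.31, 2.95 and 10.3 FPKM (2.29 ± 0.27, limma adjusted p = 9.6e-05). Mki67 went from 0.529, 0.269 and 0.396 FPKM to 4.62, 2.12 and 8.40 FPKM (1.98 ± 0.28). In these genes every day 3 sample was above every normal one, and replicate 2 was the lowest of the 3. Foxm1 went from 0.283, 0.0862 and 0.115 FPKM to 2.16, 1.03 and 3.57 FPKM (1.41 ± 0.20, limma adjusted p = 0.00029). Mybl2, which did not pass the filter, went from 0.0506, 0.0700 and 0.0720 FPKM to 0.278, 0.846 and 0.554 FPKM, with no overlap between the groups. Not called among the genes past the filter were Cenpa (0.57 ± 0.27), Kif23 (0.58 ± 0.17), Cdc25b (0.60 ± 0.15) and Ndc80 (0.75 ± 0.18). Pttg1 fell from 28.5, 31.7 and 27.5 FPKM to 11.3, 8.95 and 13.7 FPKM (-1.31 ± 0.16, limma adjusted p = 0.0001).

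The day 3 samples differed among themselves in the same way in nearly all the genes. Replicate 3 was the highest and replicate 2 the lowest in 41 of the 42, the exception being Mybl2, with a median ratio of 3.25 between them. Marker sums moved with this. In replicates 1, 2 and 3 the 7 hepatocyte markers summed to 46395, 35168 and 68138 FPKM, Kupffer cell or macrophage markers to 243, 439 and 162 FPKM, stellate cell or fibroblast markers to 88.5, 234 and 103 FPKM and red blood cell precursor markers to 90.7, 282 and 38.7 FPKM. Their part in the result was not tested. Without replicate 3 the count of called genes past the filter was 20 in place of 27, and Anln (0.96), Aurka (0.76), Bub1b (0.94) and Cdca8 (0.95) were among those no longer called.

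**Figure D5:**
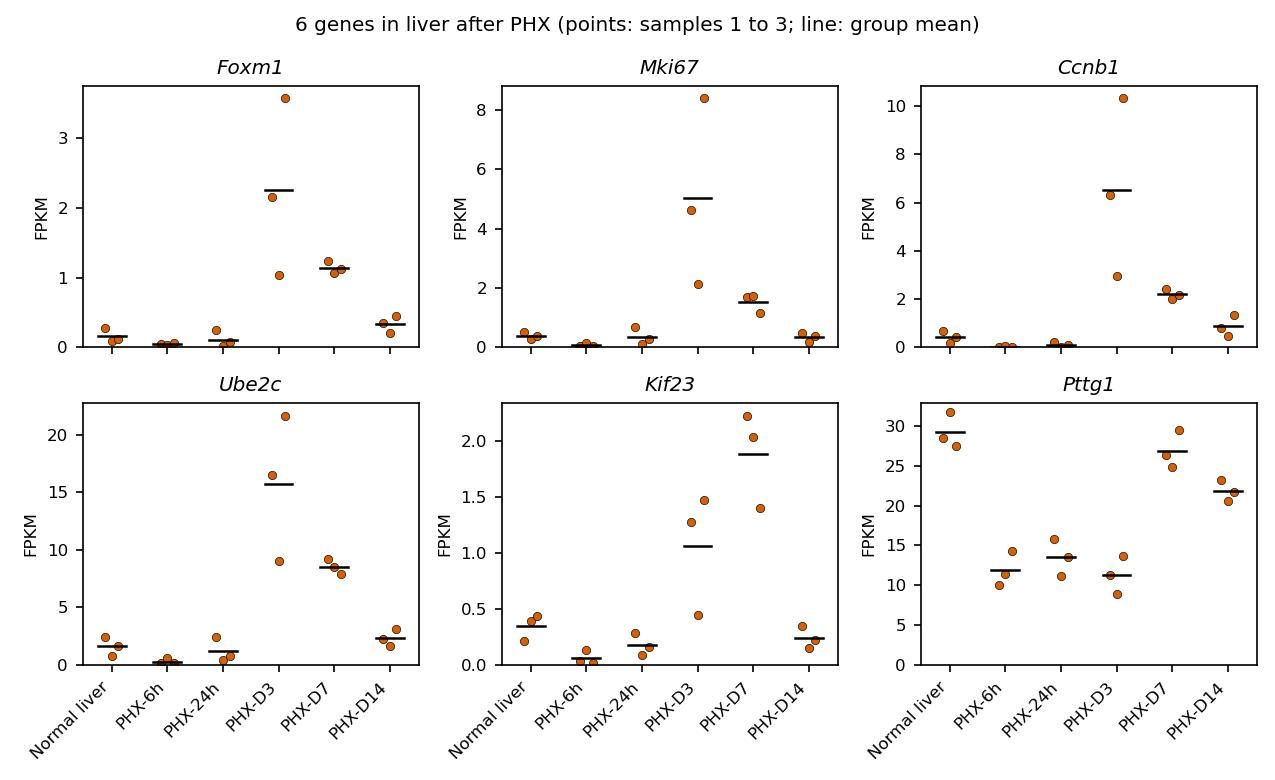
FPKM of Foxm1, Mki67, Ccnb1, Ube2c, Kif23 and Pttg1 by time after PHX. Points are the 3 samples of a group and the short line is their mean. The first 4 genes peak at day 3 (means 2.25, 5.05, 6.53 and 15.7 FPKM), Kif23 at day 7 (1.88 FPKM), and Pttg1 is lowest at day 3 (11.3 FPKM).

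At day 7, 14 genes were higher than in Normal liver and 0 lower, beside 7.81% and 1.03% of all genes (5.22% and 1.99% under quantile normalization, where 7 remained). All day 7 samples lay above all normal samples in 39 of the 42 genes, beside 39.0% of all genes tested, a share that leaves out genes below the filter. Of the 14 genes 13 were also higher at day 3, and the 14th was Kif23 (MKLP1), the kinesin of centralspindlin, at 0.209, 0.386 and 0.434 FPKM in Normal liver, 1.27, 0.441 and 1.47 FPKM at day 3 and 2.22, 2.03 and 1.4 FPKM at day 7 (1.10 ± 0.17, limma adjusted p = 0.00017). Kif23 was not among the 7 genes called under quantile normalization. Both comparisons use the same Normal liver samples, so the overlap of their calls is a description only. The largest difference was that of Ube2c, at 9.16, 8.48 and 7.88 FPKM (1.91 ± 0.33). Foxm1 was at 1.24, 1.06 and 1.12 FPKM, apart from all normal samples, with 0.88 ± 0.20 under the fold limit. Markers of other cells were high in the same samples. Macrophage markers summed to 961 to 1393 FPKM at day 7 beside 168 to 268 in Normal liver, and lymphocyte markers to 19.4 to 21.1 FPKM beside 1.85 to 3.70. Neutrophil markers summed to 54.1 to 108.3 FPKM beside 1.53 to 6.91 and red blood cell precursor markers to 218 to 284 beside 88.5 to 145.1. Endothelial markers summed to 141.5 to 217.3 FPKM beside 107.6 to 115.3 and stellate cell or fibroblast markers to 106 to 177 beside 75.9 to 101. Cholangiocyte or progenitor markers summed to 34.0 to 44.2 FPKM beside 26.9 to 33.02. The part of these markers in the result was not tested.

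Between day 3 and day 7, 4 genes fell and 1 rose, beside 1.31% and 7.15% of all genes (2.74% and 5.32% under quantile normalization). Those that fell were Hmmr (-1.24 ± 0.30), Ect2 (-1.17 ± 0.25), Mki67 (-1.12 ± 0.28) and Ccnb1 (-1.11 ± 0.27). Pttg1 rose to 26.3, 24.9 and 29.6 FPKM (1.2 ± 0.16, limma adjusted p = 3.3e-05), near the normal samples. Under quantile normalization Pttg1 (1.00) fell just short of the fold limit and Aurka was lower. The count of 5 was 1 without day 3 replicate 3 and 13 without day 3 replicate 2. At day 14, 0 genes differed from Normal liver in either direction, beside 0.981% higher and 2.00% lower of all genes, with 2 at an unadjusted p under 0.05 in limma and 0 called by limma voom. The largest value was that of Cdc20 (0.85 ± 0.44, limma adjusted p = 0.21), at 3.37, 3.29 and 5.61 FPKM beside 3.02, 0.764 and 1.98 FPKM.

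The same lists were read in the liver in the fit without the filter. At day 3, when 1.98% of all genes rose and 1.37% fell, 20 of 63 other mitosis genes rose and 0 fell, with Pbk at 2.15, and 12 of 45 G1 and S phase genes rose and 0 fell, with Rrm2 at 2.12. None of 14 APC/C subunits was called, and of 23 MuvB, DREAM and E2F partners 1 rose, Mybl1 (A-Myb), with 1.14. Among 7 CDK inhibitors 1 rose, Cdkn1a, with 3.48, after 6.12 at 6 h, when its mean was 176 FPKM beside 1.60 in Normal liver. At day 7, when 4.91% of all genes rose and 0.612% fell, the counts were 7 of 63, 5 of 45, 0 of 14, 1 of 23 and 3 of 7 higher, and 0 lower in each. With the filter Mcm10 was lower at day 3 (-1.97), and 7 G1 and S phase genes were higher at day 7.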

How the data were processed

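The deposited values are FPKM per gene and sample, made by the authors from paired-end reads, and the submitters' processing notes name TopHat 1.4.1, Cufflinks 1.3.0 and the build mm10. Strand use and the annotation are not given in the sources used here. The study's methods state no test of single genes for these tables. Cell and liver tables were made apart and never fitted together, and no gene level was compared between them. Groups came from the labels, and every column was matched to a sample.

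Genes with at least 1 FPKM in 3 samples were tested (12328 in cells, with all 42 genes, and 11114 in livers, with 31). limma 3.58.1 in R 4.3.3 was run on log2(FPKM + 1), with all groups of a table in 1 fit and a trend in the variance. Benjamini-Hochberg adjustment ran across every gene tested in a table, and a call needed an adjusted p under 0.05 and 2-fold. Whole reads were recovered from the steps of the values for 99.99% of genes (tolerance 0.02 reads) and used for depth and for limma voom. Python 3.11.15, numpy 2.4.6, pandas 2.3.3 and matplotlib 3.10.9 did the rest.

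The genes and lists were chosen with earlier results of these data known. Genes are named by role, by the largest and smallest difference in a role or list, and as exceptions to a count, and genes whose sign turned under quantile normalization or whose call was lost were named after their values were seen. Alternatives were a pseudocount of 0.1, no filter, quantile normalization, a replicate block, no fold limit, limma voom and leaving out each sample. On simulated data 200 of 200 planted changes were called in the D3 comparison and 184 (92.0%) in the 6 h comparison, at a log2 change of 1.5. False calls numbered 1 in the D3 comparison and 3 in the 6 h comparison. The shares of planted changes called were not split by gene level. They therefore do not give the share for genes as low as most mitosis genes were in these livers. The median of the mitosis genes was 0.412 FPKM in Normal liver and 0.0815 FPKM at 6 h. Overlaps of exons were read from GENCODE on GRCm38 (mm10), and promoters from RefSeq. The table of day 7 cultures was not used here.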

Additional observations from a re-analysis of the deposited data

Results flagged for a closer look

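The maturation change (IL6-iMHs against IL6-iHPCs) differed between cultures in a test of the difference itself, by limma with Benjamini-Hochberg adjustment. On log2(FPKM + 1) a gene can fall no further than its starting level. IL6-iHPC medians were 31.4 FPKM in mouse-1 (P35), 2.76 in mouse-2 (P10) and 0.655 in mouse-1 (P10). The test therefore does not separate the maturation change from the starting level. Between mouse-1 (P35) and mouse-1 (P10) all 42 genes differed, by -4.75 for Foxm1, -3.35 for Mybl2, -3.73 for Mki67 and -1.07 for Pttg1 on the log2 scale (adjusted p = 3.6e-20, 2.7e-22, 1.5e-18 and 2.6e-09). With quantile normalization Pttg1 was at -0.69, under the fold limit. Between mouse-2 (P10) and mouse-1 (P10) 26 genes differed, by -1.45 for Foxm1 and -2.49 for Mki67 (adjusted p = 2.8e-08 and 1e-13). Groups of 3 samples are too small for a test of single samples that stand apart.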

How the results depend on the processing

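Of 336 counts of called genes under an alternative, 271 stayed within 1.5 times the reported count and 65 did not, and of 870 values under an alternative of the 76 differences followed singly (27 genes in 18 comparisons) 855 kept their direction and call, 15 lost the call and 0 changed direction. Nek2, whose sign turned under quantile normalization at D3 and in mouse-2 (P10), is not among these for those comparisons. Where a cause is not named below it was not tested.

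Quantile normalization gave counts of 23 (D3), 18 (D14), 4 (mouse-1 (P10)) and 20 (mouse-2 (P10)) for IL6-iHPCs against hepatocytes, 5 and 11 for maturation in mouse-1 (P10) and mouse-2 (P10), 1, 4 and 9 for IL6-iMHs of mouse-1 (P10), mouse-2 (P10) and clone-1 against hepatocytes, 14 for mouse-2 minus mouse-1 (P10), and 2 at 6 h, 7 at day 7 and 0 for 24 h against 6 h. Without the 2-fold limit, with a pseudocount of 0.1 and with limma voom on recovered reads, in this order, the counts were 31, 2 and 4 for D14 against D3, 31, 27 and 32 for mouse-1 (P10) against hepatocytes, 40, 37 and 38 for mouse-2 against mouse-1 (P10), and 27, 12 and 17 for maturation in mouse-1 (P10). For IL6-iMHs against hepatocytes they were 37, 34 and 38 in mouse-1 (P10), 31, 28 and 36 in mouse-2 (P10), 39, 36 and 39 in clone-1 and 21, 18 and 25 in mouse-1 (P35). They were 11, 27 and 20 at 6 h, 23 in each at day 7 and 4, 8 and 4 for 24 h against 6 h. The pseudocount gave 6 at 24 h. Without the fold limit there were 40 for maturation in mouse-2 (P10), where voom gave 35, 11 for day 7 against day 3 and 41 for mouse-2 minus mouse-1 (P10). Dropping the filter moved no count by over 1.5 times.

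Leaving out 1 sample gave 0 to 2 calls for D14 against D3, 5 to 9 for mouse-1 (P10) against hepatocytes, 0 to 3 for maturation in mouse-1 (P10), 2 to 5 at 6 h, 1 to 2 at 24 h, 0 to 2 for 24 h against 6 h, 20 to 27 at day 3, 13 to 17 at day 7 and 1 to 13 for day 7 against day 3. In livers the genes that lost their call in at least 1 such fit were Cdc20 and Ube2c at 6 h, Pttg1 at 24 h, Mad2l1 for 24 h against 6 h and day 3 against 24 h, Anln, Aurka, Birc5, Bub1b, Cdca8 and Nek2 at day 3, Birc5 at day 7 and Ccnb1, Ect2, Hmmr and Mki67 (-0.74) from day 3 to day 7 without day 3 replicate 3. Kif11, called at day 3, reached 1 FPKM in 3 samples only. Without day 3 replicate 3 it failed the filter and was not fitted, so it is missing from the counts of that fit as well. In cells 1 or 2 genes lost their call in each of 9 comparisons and none did in the rest. Aurka at day 3 was also lost with quantile normalization (0.92), without Normal liver replicate 2 (0.96) and without day 3 replicate 1 (0.85). Mybl2 at D14 against hepatocytes was at 0.52 with quantile normalization.

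With the replicate number as a block, the count was 38 for D3 against hepatocytes, 42 for the maturation change of mouse-1 (P35) minus mouse-1 (P10), 27 at day 3 and 14 at day 7, as without it, and the pairing changed none of the other counts of calls at 2-fold. Samples with the same number had a mean correlation of deviations of -0.015 in cells and -0.030 in livers, so they share a number only. Comparisons with the day 7 cultures were not run, since the part of that table at hand lists none of the 42 genes.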
